A study of Mus musculus with 19 samples.

Results

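The genes of the extracellular matrix and of the hepatic stellate cell were examined in end-stage mouse liver tumours. They comprised 39 genes out of 39179 gene identifiers in the table of read counts. The genes were taken by symbol from a fixed list of collagens, other matrix proteins, matrix enzymes and stellate cell or mural cell markers. This list was chosen with earlier results of these data known. All 39 genes matched an identifier and had reads in every tumour analysed. The series holds 13 tumours, 3 control livers and 3 high AAV control livers, and only the 10 tumours numbered 04 to 13 could be tied to a column of the table. Control and high AAV control livers were thus left out, and the levels below are those of tumours alone.

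The tumours arose in male mice of mixed background that were heterozygous for Ctnnb1tm1Mmt, an allele of the gene for β-catenin that Cre turns into an active form, and homozygous for Gt(ROSA)26Sortm1(MYC)Djmy, a human MYC transgene that Cre switches on. Cre came from AAV8.TBG.PI.Cre.rBG, an adeno-associated virus with a hepatocyte promoter, at 640000000 genome copies per mouse. Cre is thus driven by a promoter of hepatocytes, whereas most of the matrix genes are known as genes of other cells. RNA was taken from whole tumour tissue, so a lower level may reflect fewer cells of a type or less RNA per cell, and these cannot be told apart. The column of each tumour carries a tag whose meaning the labels do not give. The first part of the tag split the tumours into RMH4 (tumours 04, 05 and 06), RMH18 (07 and 08) and RMH35 (09 to 13), and tumours with a whole tag in common (05 with 06, 07 with 08, 09 with 10, and 11, 12 and 13) may share a mouse. If they do, they are not independent and p-values below are too small.

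Stellate cells lie between the hepatocytes and the sinusoidal endothelium and store vitamin A as retinyl esters, which the enzyme encoded by Lrat forms. When activated they lose this store, take on contractile filaments such as smooth muscle actin, and become a main source of fibrillar collagen in the injured or tumour-bearing liver. Portal fibroblasts, smooth muscle cells and pericytes also make collagen, and endothelial cells deposit much of the basement membrane, the sheet of type IV collagen, laminin and nidogen on which vessels rest. Levels are given as CPM, the counts of a gene per 1000000 gene counts after TMM scaling, and compared between genes only per kilobase of transcript.

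Total gene counts ranged from 11687034 (tumour 07) to 36964427 (tumour 13), so that 3 counts corresponded to between 0.0812 and 0.257 CPM, a floor that covers counting error only. Tumours 05, 06 and 07 stood apart in RNA of the RNase P and RNase MRP complexes. Rpph1 was at 30.0 to 51.8 CPM in these 3 tumours and at most 4.28 CPM elsewhere, and fits with the Rpph1 level added are given beside most results below. Hepatocyte markers were abundant in all tumours, with a sum over 10 genes of 34339 to 56294 CPM. Stellate cell markers were also present, as Lrat had at least 37 counts and Reln at least 71 counts in every tumour. Of 18 further stellate cell genes, such as Hand2, Cygb and Colec11, 10 passed the filter on low counts, and at most 4 were at 0 in any tumour.

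Matrix genes differed between tumours far more than most genes did. Of the 39 genes, 35 passed the filter on low counts (edgeR's filterByExpr), and the SD of log2 CPM over the 10 tumours exceeded 1 for 21 of these 35. Over all 12462 genes that passed, it exceeded 1 for 645 genes (5.18%). The median SD was 1.05 log2 units for the matrix and stellate genes and 0.334 for all genes. Among the 7 tumours low in Rpph1 alone it exceeded 1 for 22 of the 35 genes and 543 of the 12462. Without tumour 09, 13 of the 35 genes and 618 of the 12462 exceeded 1. Mgp, Loxl2, Timp1 and Thy1 did not pass the filter, with lowest counts of 15, 10, 13 and 9, and entered none of the fits across genes.

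A pair of tumours held most of the high values. In tumour 09 lay the highest value of 30 of the 39 genes and the highest or second highest of 35, and in tumour 07 that of 6 and of 24. The lowest value lay in tumour 12 for 15 genes, in tumour 11 for 9 and in tumour 13 for 6, all of which carry the tag RMH35_1c. Summed over the genes other than Fn1 and Col18a1, which hepatocytes also express, the levels came to 4838 and 4198 CPM in tumours 09 and 07, lay between 1149 and 2731 CPM in tumours 04, 05, 06, 08 and 10, and were at 700 to 894 CPM in tumours 11, 12 and 13. Tumours 09 and 10 carry the same tag, as do 07 and 08, and lay far apart within each tag.

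**Figure D1:**
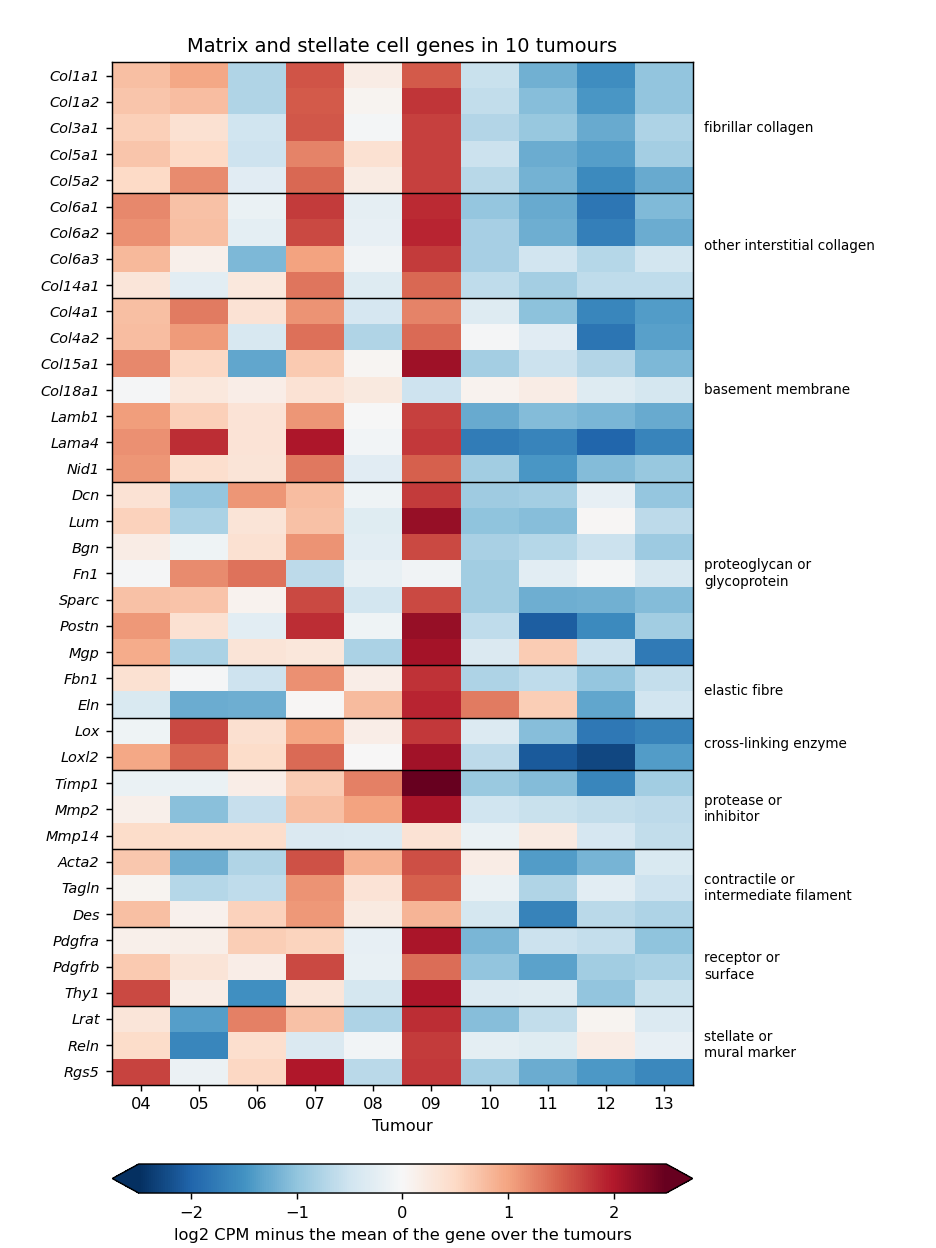
Level of the 39 genes (rows, grouped by role) in tumours 04 to 13 (columns), as log2 CPM minus the mean of the gene over the tumours. Columns 07 and 09 are red for most genes and columns 11, 12 and 13 blue, whereas Col18a1, Mmp14 and Fn1 follow another pattern.

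The fibrillar collagens, which form the load-bearing fibres of the interstitial matrix, moved as a block. Col1a1 (ENSMUSG00000001506; chromosome 11, 94936224 to 94953042 in GRCm38.p6), which encodes the main chain of type I collagen, had a lowest level of 68.2 CPM in tumour 12, a median of 182 CPM and a highest level of 595 CPM in tumour 07, an 8.72-fold range. Col1a2 (ENSMUSG00000029661; chromosome 6, 4505618 to 4541543), the second chain of the same protein, ran from 44.7 CPM in tumour 12 through a median of 105 CPM to 426 CPM in tumour 09. For both genes tumours 07 and 09 were the highest and tumours 11, 12 and 13 the lowest, with 04, 05 and 08 in between and 06 next to the lowest. Col3a1, whose product mixes into the same fibres, ran from 74.0 through 148 to 576 CPM, and Col5a1 and Col5a2, which encode chains of the fibre-nucleating type V collagen, peaked at 89.1 and 66.8 CPM. All 5 had an SD above 1, between 1.04 and 1.18 log2 units, where counting error alone would give at most 0.0798.

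The other interstitial collagens were more mixed. Col6a1 and Col6a2, whose products join with that of Col6a3 into the beaded filaments of type VI collagen, had ranges of 12.8-fold and 12.2-fold, with lowest levels of 7.10 and 7.07 CPM in tumour 12 and highest levels of 91.2 and 86.1 CPM in tumour 09. Col6a3 had a narrower 7.36-fold range and its lowest level, 11.8 CPM, in tumour 06. Tumour 06 was thus not low for all 3 chains: it held 22.3 CPM of Col6a1 and 19.4 CPM of Col6a2, near the medians of 21.9 and 19.6 CPM. Col14a1, a collagen that sits on the surface of fibres, ranged over 4.90-fold, from 26.4 CPM in tumour 11 to 130 CPM in tumour 09.

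Among basement membrane genes, 6 of 7 had an SD above 1. Col4a1 (ENSMUSG00000031502; chromosome 8, 11198423 to 11312889) and Col4a2 (ENSMUSG00000031503; chromosome 8, 11312805 to 11449287) encode the chains of the common type IV collagen and lie head to head, with starts that overlap in the annotation, so that a few reads there may be assigned to either gene. Col4a1 ran from 92.9 CPM in tumour 12 through a median of 301 CPM to 711 CPM in tumour 05, and Col4a2 from 43.4 CPM in tumour 12 through 139 CPM to 413 CPM in tumour 09. Tumour 12 was the lowest for both genes, but tumour 05 led for Col4a1 alone of the 39 genes. Lama4, a laminin chain of vessel walls, had the widest spread of all genes that passed the filter among the 39, with an SD of 1.61 log2 units and levels of 1.54, 6.75 and 24.6 CPM (lowest, median and highest). It lay at 5.80 CPM or more in tumours 04 to 09 and at 1.95 CPM or less in tumours 10 to 13. Lamb1, another laminin chain, and Nid1, which links laminin to type IV collagen, peaked in tumour 09 at 43.6 and 71.4 CPM and did not exceed 6.37 and 13.9 CPM in tumours 10 to 13. Col15a1, a collagen of the vessel-side basement membrane, was highest in tumour 09 at 48.6 CPM and lowest in tumour 06 at 4.55 CPM.

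Col18a1, the precursor of endostatin, was the exception in this class. It was the most abundant of the 39 genes per kilobase, at 290 ± 58.9 CPM per kb (SD, n = 10), and ranged over 1.83-fold, from 1111 CPM in tumour 09 to 2035 CPM in tumour 07. Tumour 09, the highest for 30 genes, was the lowest for Col18a1. The SD of Col18a1 was 0.31 log2 units, below the 0.334 of the median gene.

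Fibronectin, a glycoprotein of the provisional matrix that hepatocytes also secrete, followed neither pattern. Fn1 had a lowest level of 712 CPM in tumour 10, a median of 1184 CPM and a highest level of 3356 CPM in tumour 06. Tumour 05, with the same tag as 06, was second at 2946 CPM, and the other 8 tumours lay at 1284 CPM or less, with 827 CPM in tumour 07. Without tumours 05, 06 and 07, the libraries rich in Rpph1, the SD of Fn1 fell from 0.72 to 0.30 log2 units.

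**Figure D2:**
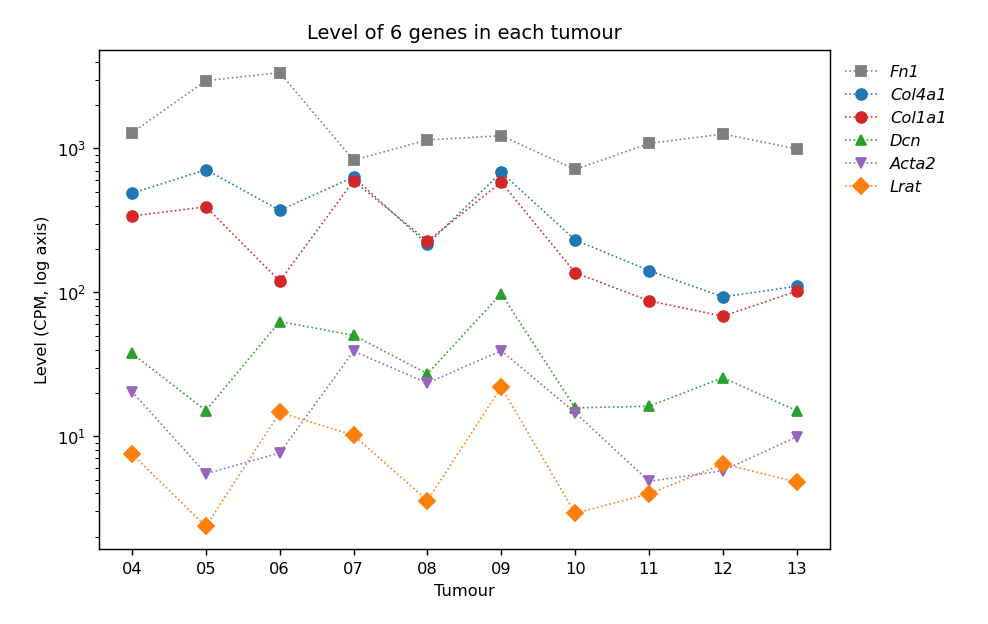
Level of Fn1, Col4a1, Col1a1, Dcn, Acta2 and Lrat in each of the 10 tumours, in CPM on a log axis, where each point is 1 library and dotted lines only join the points of a gene. Lrat is lowest in tumour 05 (2.36 CPM), where Col4a1 is highest (711 CPM), and Fn1 is highest in tumours 05 and 06.

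The small leucine-rich proteoglycans bind collagen fibres and set their diameter. Decorin (Dcn) had levels of 15.1, 26.3 and 97.9 CPM (lowest, median and highest), with the peak in tumour 09 and 62.6 CPM in tumour 06, and lumican (Lum) of 2.27, 4.31 and 21.4 CPM. Both were low in tumour 05, at 15.1 and 2.74 CPM, although its Col1a1 was the third highest at 392 CPM. Biglycan (Bgn) ran from 42.0 CPM in tumour 13 to 245 CPM in tumour 09. Of the matricellular genes, Sparc, whose product binds collagen and calcium, ran from 67.7 to 501 CPM and Postn, periostin, from 2.90 to 55.1 CPM, a 19.0-fold range. Mgp, an inhibitor of calcification, stayed at 6.98 CPM or less.

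Both elastic fibre genes were lowest in tumour 12 and highest in tumour 09, and differed in other tumours. Fbn1, the fibrillin of the fibre scaffold, ran from 5.75 through 9.40 to 39.4 CPM, with tumours 09 and 07 the highest. Elastin (Eln) ran from 4.90 through 10.7 to 44.6 CPM, and here tumour 10, low for collagens, was second at 29.3 CPM while tumour 07 held 12.2 CPM.

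Enzymes that cross-link or cut the matrix, and their inhibitors, ranged in mean level from 0.787 CPM per kb for Loxl2 to 16.9 CPM per kb for Mmp14. Lox, lysyl oxidase, ran from 1.15 through 4.05 to 13.5 CPM and Loxl2, its relative, from 0.559 through 3.20 to 11.6 CPM, both lowest in tumour 12 and highest in tumour 09, with tumour 05 second. Timp1, an inhibitor of metalloproteinases, had the widest fold range of the 39 genes, 21.2-fold, from 0.559 CPM in tumour 12 to 11.9 CPM in tumour 09. Its next value, 4.15 CPM, was in tumour 08. Mmp2, a gelatinase made by stromal cells, was lowest in tumour 05 at 3.06 CPM and highest in tumour 09 at 26.1 CPM, with tumour 08 second at 12.8 CPM. Mmp14, the membrane-bound protease that activates the Mmp2 product, ranged over 2.09-fold, from 29.7 CPM in tumour 13 to 62.1 CPM in tumour 04.

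Acta2, Tagln, Lrat and Reln, contractile and stellate cell genes, placed tumour 05 lower among the tumours than the fibrillar collagens did. Acta2 (ENSMUSG00000035783; chromosome 19, 34240336 to 34255585), smooth muscle actin, had levels of 4.86, 12.2 and 39.3 CPM (lowest, median and highest), and Tagln, transgelin, of 9.58, 13.9 and 45.2 CPM. In tumour 05 Acta2 was second lowest, at 5.49 CPM. Lrat (ENSMUSG00000028003; chromosome 3, 82892582 to 82903974) had levels of 2.36 CPM in tumour 05, a median of 5.61 CPM and 21.9 CPM in tumour 09, with tumour 06 second at 14.6 CPM. Reln, reelin, a marker of quiescent stellate cells, was lowest in tumour 05 at 4.53 CPM, had a median of 12.9 CPM and was highest in tumour 09 at 47.2 CPM. Tumours 05 and 06, which share a tag, lay side by side for some genes, such as Fn1, Mmp14, Tagln and Eln, and far apart for others: tumour 05 had the third highest Col1a1, the highest Col4a1 and the lowest Lrat, Reln and Mmp2, whereas tumour 06 had the fourth lowest Col1a1, the second highest Lrat, Dcn and Pdgfra, and the lowest Col6a3, Col15a1 and Thy1. Macrophage genes moved with this contrast: the summed level of 12 macrophage genes was 202 CPM in tumour 05, where Marco was at 0, and 551 CPM in tumour 06, the highest of the 10 tumours. Of these 12 genes 11 were lower in tumour 05 than in tumour 06, and Cd68 was higher, at 68.3 against 48.6 CPM. The part of macrophages in the Lrat difference was not tested.

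Pdgfrb, a PDGF receptor of stellate cells and pericytes, ran from 6.81 through 17.2 to 54.0 CPM, with tumours 07 and 09 the highest. Pdgfra, which encodes the other PDGF receptor, ran from 1.86 through 4.03 to 17.0 CPM. Rgs5, a pericyte gene, ran from 6.11 CPM in tumour 13 through 14.2 CPM to 73.9 CPM in tumour 07, with tumours 04 and 09 at 59.6 and 63.2 CPM. Desmin (Des), an intermediate filament gene of stellate and muscle cells, ranged from 1.13 CPM in tumour 11 to 7.75 CPM in tumour 07. Thy1, a portal fibroblast marker, did not exceed 6.41 CPM.

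Whether matrix levels went with the first part of the tag was tested over all genes. This test cannot show differences between whole tags of the same family, such as tumour 09 against tumours 11, 12 and 13 in RMH35. No matrix or stellate gene passed (edgeR quasi-likelihood F test between RMH4, RMH18 and RMH35, 0 of 35 at an adjusted p under 0.05), against 1 of 12462 genes (0.00802%). At an unadjusted p under 0.05 there were 2 such genes, Fn1 and Mmp14, and 1740 of all 12462 genes. With Rpph1 added, edgeR called 0 of 12461 genes, and 0 of the 35 genes had an unadjusted p under 0.05 (902 of all genes). Fn1 averaged 11.2 log2 CPM in RMH4, 9.93 in RMH18 and 10.0 in RMH35 (edgeR, unadjusted p = 0.00282, adjusted p = 0.181), and DESeq2 called Fn1 alone of the 28 of these genes with an adjusted p, against 4.14% of 12161 genes. Without tumour 09, edgeR called Lama4 and Lamb1, against 1.39% of 12546 genes, and without tumour 04 it called Fn1, against 0.685% of 12557.

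Next, each gene was fitted on the level of Col1a1 to ask which genes rose with fibrillar collagen across the tumours. Of the 34 other matrix and stellate genes tested, 22 rose with Col1a1 and 0 fell (edgeR, adjusted p under 0.05), whereas of 12461 genes 2.34% rose and 0.233% fell. The median slope was 0.79 log2 units per log2 unit of Col1a1 for the 34 genes and -0.00192 for all genes. All 4 other fibrillar collagens rose, as did all 4 other interstitial collagens, 6 of 7 basement membrane genes and 3 of 6 proteoglycans and glycoproteins.

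Col1a2 rose by 0.99 ± 0.06 (slope ± SE; edgeR, adjusted p = 1.09e-05), in step with Col1a1. Col6a1 rose by 1.10 ± 0.10 and Postn by 1.14 ± 0.12, and Lama4 rose the most, by 1.27 ± 0.18 (edgeR, adjusted p = 0.00407). Rgs5 and Acta2 also rose, by 1.02 ± 0.20 and 0.80 ± 0.18 (edgeR, adjusted p = 0.0189 and 0.0395). The genes that did not pass were Col18a1, Dcn, Lum, Fn1, Eln, Mmp2, Mmp14, Tagln, Des, Pdgfra, Lrat and Reln. For Fn1 the slope was 0.01 ± 0.21, for Lrat 0.35 ± 0.23 (edgeR, adjusted p = 0.552) and for Reln 0.26 ± 0.20, and the errors of Lrat and Reln leave room for slopes well above 0.

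The calls on Col1a1 changed with added covariates and with a few tumours left out. With the endothelial score, the mean log2 CPM of 15 endothelial genes, added to the fit, no gene passed for Col1a1 in edgeR (0 of 12461, 292 at an unadjusted p under 0.05, 13 of them matrix or stellate genes). The slopes in this joint fit differed between genes. Col1a2 had 0.98 ± 0.14 on Col1a1 and 0.02 ± 0.16 on the endothelial score, and Col5a1 had 0.84 ± 0.17 and 0.08 ± 0.19. The reverse was seen for Rgs5, with 0.04 ± 0.31 on Col1a1 and 1.35 ± 0.34 on the score, for Pdgfrb, with 0.17 ± 0.18 and 0.82 ± 0.20, and for Col14a1, with 0.01 ± 0.22 and 0.79 ± 0.25. None of these slopes passed after adjustment in edgeR, and the genes were picked for mention after their values were seen. Col1a1 itself rose with the score, by 1.09 ± 0.16 (edgeR), so the joint fit separates the covariates poorly. The SE of Col1a2 on Col1a1 was 0.06 without the score and 0.14 with it. With Rpph1 added in place of the score, 22 of the 34 genes rose, against 1.56% of 12461 genes. With the blood score alone added, 11 of the 34 genes rose with Col1a1, against 1.7% of 12461 genes. With tumours 07 and 09 left out, 36 other matrix and stellate genes passed the filter and 6 of them rose (Col1a2, Col3a1, Col5a1, Col5a2, Col6a1 and Col6a2), against 0.251% of 12741 genes. With the whole tag added only Col1a2 of the 34 rose, against 0.0161% of 12461 genes. The number of all genes called fell from 320 to between 135 and 208 without tumour 07, 09, 11, 12 or 13, while that of the matrix and stellate genes stayed between 17 and 24 whichever tumour was left out.

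**Figure D3:**
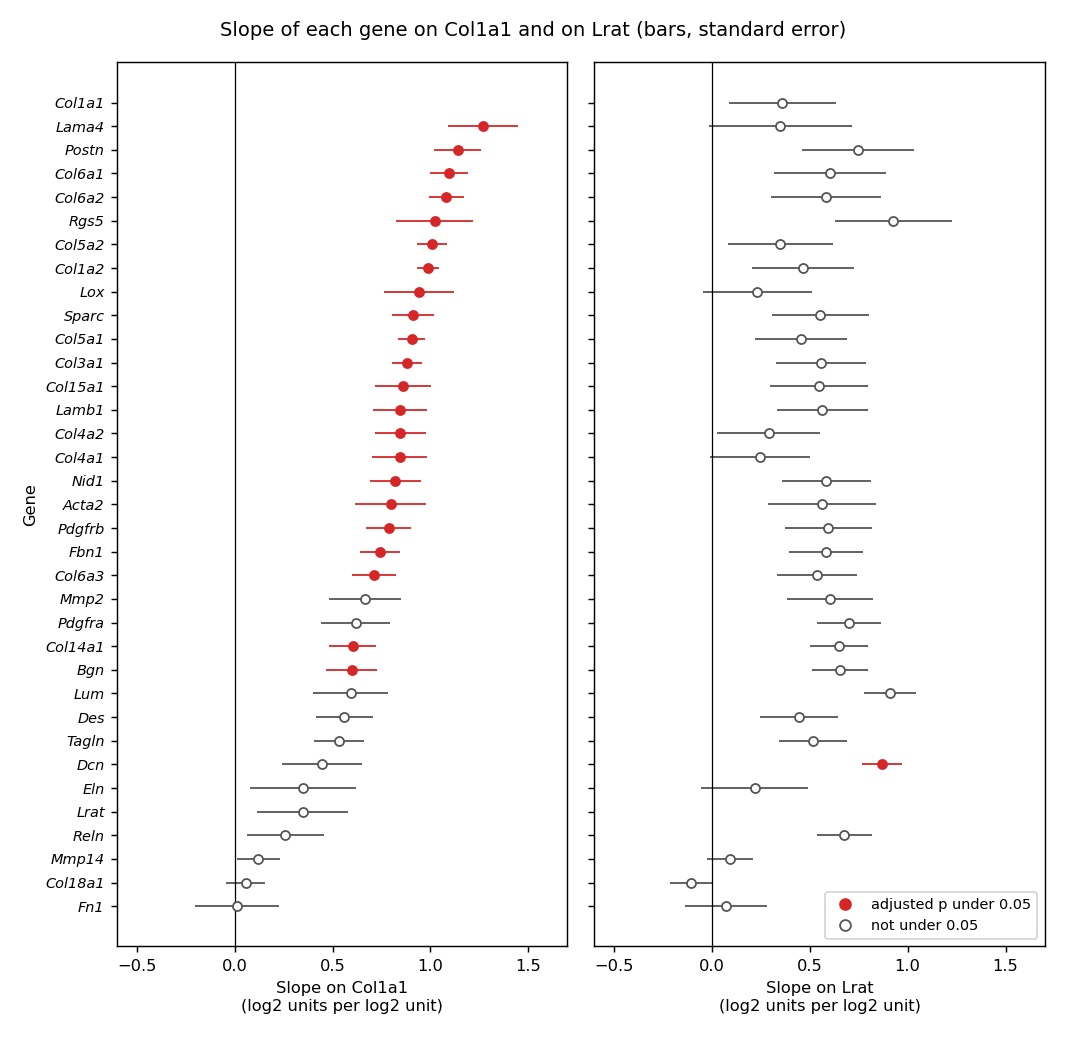
Slope of each tested gene on Col1a1 (left) and on Lrat (right) across 10 tumours, in log2 units per log2 unit, with bars for the standard error and filled red points for an adjusted p under 0.05 in edgeR. On Col1a1 22 of 34 genes are filled, with Fn1, Col18a1 and Mmp14 near 0, and on Lrat Dcn alone is filled.

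The same was asked of Lrat, the marker of the vitamin A store. Of 34 genes, 1 rose with it (edgeR), against 4 of 12461 genes (0.0321%). That gene was Dcn, with a slope of 0.87 ± 0.10 (edgeR, adjusted p = 0.0151), and Lum came next, with 0.91 ± 0.13 (edgeR, adjusted p = 0.0531). Reln had a slope of 0.68 ± 0.14 and Pdgfra of 0.70 ± 0.16, with adjusted p-values of 0.163 and 0.205 in edgeR, and DESeq2 called these genes together with Bgn, Col14a1, Dcn and Lum, where it called 0.931% of 12461 genes as rising. The slopes of the fibrillar collagens on Lrat were 0.35 to 0.56, with standard errors of 0.23 to 0.27. With Rpph1 added, edgeR called Dcn and Reln, against 0.0562% of 12461 genes rising. The call of Dcn was lost without tumour 09 and without tumour 10. The other 3 genes that rose with Lrat were Clec4n, Msr1 and Csf2rb2, chosen for mention after their values were seen, of which Clec4n and Msr1 encode macrophage receptors.

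On Acta2, 1 of 34 genes rose (edgeR), against 5 of 12461 genes (0.0401%). It was Tagln, a smooth muscle gene, with a slope of 0.64 ± 0.09 (edgeR, adjusted p = 0.0388). The call was lost without any 1 of the tumours other than 05, and without tumour 05 there were 9 of 34 genes, Col1a1 among them, against 0.182% of 12633 genes rising. Mmp2 had a slope of 0.79 ± 0.13 on Acta2 and Fbn1 one of 0.66 ± 0.13 (edgeR, adjusted p = 0.104 and 0.124). DESeq2 called 9 of the 34 genes on Acta2, Tagln, Mmp2 and Fbn1 among them, against 1.12% of 12461 genes rising. EdgeR with Rpph1 added called 9, these 3 again among them, against 0.674%. With tag family or the whole tag added, edgeR called no gene on Acta2, Tagln included.

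On Col4a1, 22 of 34 genes rose and 0 fell, against 3.82% of 12461 genes rising and 0.915% falling. Lama4 again rose the most, by 1.39 ± 0.14, followed by Rgs5 at 1.19 ± 0.19, and Lox rose by 1.09 ± 0.13. Des and Pdgfra passed here, with slopes of 0.62 ± 0.14 and 0.71 ± 0.18 (edgeR, adjusted p = 0.0325 and 0.0419), whereas Acta2 and Col6a3 did not. No test of the difference between the slopes on Col1a1 and on Col4a1 was made. With the whole tag added to the fit, edgeR called none of the 34 genes and 0% of 12461 genes as rising. At an unadjusted p under 0.05 there were 23 of the 34 genes and 1256 of all genes. Rpph1 itself rose with Col4a1, by 1.73 ± 0.44 (edgeR, adjusted p = 0.0484), and with Rpph1 added 19 of the 34 genes rose, against 1.58% of 12461 genes.

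Endothelial genes moved with the matrix genes. The summed level of the 15 endothelial genes, none of which was at 0 in any tumour, ran from 118 CPM in tumour 13 to 792 CPM in tumour 07. Of 35 matrix and stellate genes, 23 rose and 0 fell with the endothelial score (edgeR), against 2.88% and 0.378% of 12447 genes. Pdgfrb rose by 1.01 ± 0.09 (edgeR, adjusted p = 0.000136), Sparc by 1.14 ± 0.11 and Rgs5 by 1.39 ± 0.15, all with smaller adjusted p-values than Col1a1, at 1.09 ± 0.16 (edgeR, adjusted p = 0.00208). With Col1a1 added, 0 of the 34 other genes passed (13 at an unadjusted p under 0.05, and 475 of all genes), against 0.00803% of 12447 genes rising, although some slopes on the score stayed about as large, such as that of Rgs5 (1.35 against 1.39). Since Col1a1 itself rose with the score, that joint fit separates the covariates poorly. With the whole tag added, 8 of 35 genes rose with the score, against 0.868% of 12447 genes, and with Rpph1 added 26 of 35, against 2.33%. Blood genes moved too: haemoglobin and Alas2 together were lowest in tumour 13 (101 CPM) and highest in tumour 07 (6181 CPM), and 3 of 4 tested rose with Col1a1. With the blood score added, 15 of 35 genes rose with the endothelial score, against 4.17% of 12447 genes.

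No matrix or stellate gene passed on the macrophage score (0 of 35 in edgeR, against 0 of 12454 genes, 0%, and 10 of 35 and 931 of all genes at an unadjusted p under 0.05). Lrat was nearest, with a slope of 1.17 ± 0.19 (edgeR, adjusted p = 0.127), followed by Dcn at 0.99 ± 0.19 and Reln at 0.95 ± 0.20 (edgeR, adjusted p = 0.171 and 0.181), and these 3 were the matrix or stellate genes that DESeq2 called, against 0.594% of 12454 genes rising. Col1a1 had a slope of 0.20 ± 0.34. On the proliferation score 0 of 35 passed in edgeR and in DESeq2, against 0 of 12450 genes (0%) in edgeR and 0.376% of 11966 in DESeq2, and Col4a2, at -1.55 ± 0.62, was the 1 matrix or stellate gene with an unadjusted p under 0.05 in edgeR (730 of all genes).

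**Figure D4:**
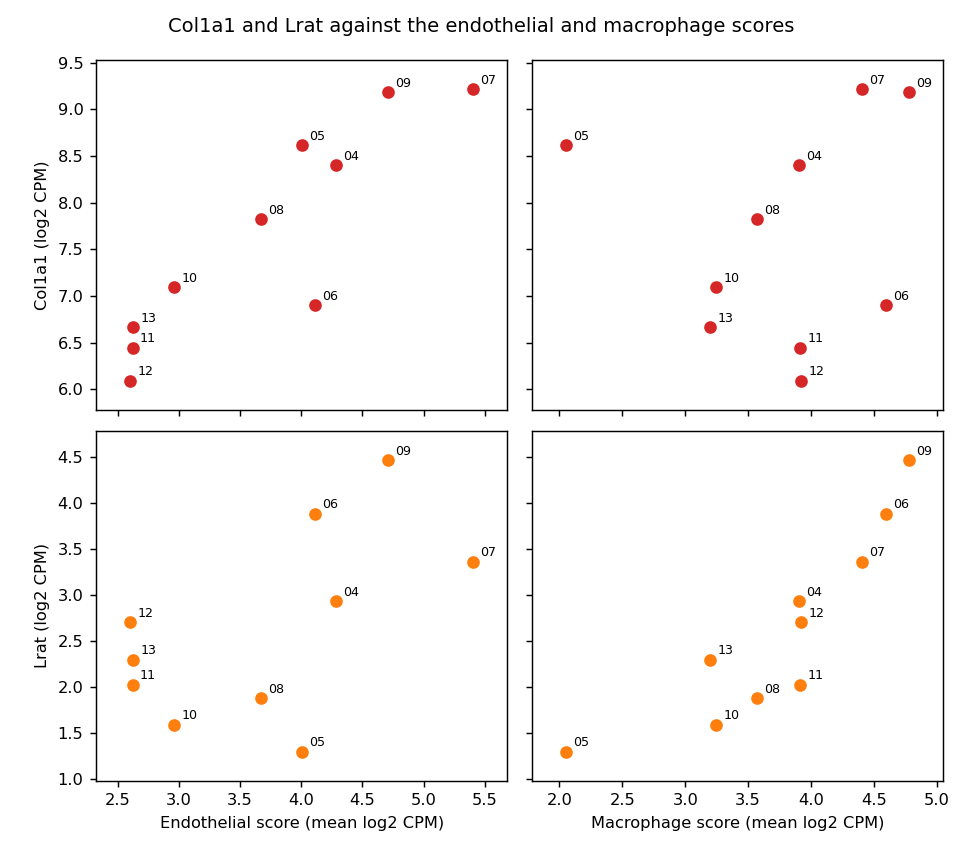
Col1a1 (top) and Lrat (bottom), in log2 CPM, against the endothelial score (left) and the macrophage score (right), each the mean log2 CPM of its marker genes, with 1 point per tumour. Col1a1 rises along the endothelial score, with tumour 06 below tumours 04 and 05, whose scores are near its own. Lrat rises along the macrophage score from tumour 05 to tumour 09.

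Pairs of genes, such as chains of the same collagen, were then compared across the tumours, 16 in all (Pearson's r, permutation tests with 100000 resamples, adjusted over the 16 pairs). Of these, 14 were correlated at an adjusted p under 0.05. Col6a1 and Col6a2 had r = 0.998 (rho = 0.976), and Col1a1 and Col1a2 had r = 0.994 (rho = 0.988, permutation test, adjusted p = 8e-05 for r and 0.00016 for rho). Without the 2 tumours farthest from the median, r was still 0.996 and 0.998, and on deviations from the tag means it was 0.997 and 0.993. Col4a1 and Col4a2, neighbours on chromosome 8, had a lower r of 0.934 (rho = 0.903, permutation test, adjusted p = 0.00028 and 0.00181), which was 0.861 without tumours 12 and 13 (exact permutation test, p = 0.0124, n = 8).

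The pairs that did not pass were Fbn1 with Eln (r = 0.469, permutation test, adjusted p = 0.185; rho = 0.370, adjusted p = 0.313) and Col1a1 with Lrat (r = 0.314, permutation test, adjusted p = 0.370; rho = 0.212, adjusted p = 0.559). For Col1a1 and Lrat r was -0.292 without tumours 07 and 09 (exact permutation test, p = 0.486, n = 8) and 0.660 among the 7 tumours low in Rpph1 (exact permutation test, p = 0.096, n = 7), so that neither its sign nor its size was settled. Lrat and Reln had r = 0.812 (permutation test, adjusted p = 0.00249), but rho was 0.661 (permutation test, adjusted p = 0.051) and r was 0.602 without tumours 06 and 09 (exact permutation test, p = 0.102, n = 8), so that it no longer passed without those tumours. Among the 7 tumours low in Rpph1 it was 0.965 (exact permutation test, p = 0.00317, n = 7), and on deviations from the tag means 0.892. Mmp2 and Timp1 had r = 0.892 and rho = 0.685 (permutation test, adjusted p = 0.00172 and 0.0424), and r = 0.565 without tumours 08 and 09 (exact permutation test, p = 0.141, n = 8). Their r was 0.990 among the tumours low in Rpph1 (exact permutation test, p = 0.00198, n = 7) and 0.975 on deviations from the tag means.

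Ratios within a pair, per kilobase of the main transcript, varied less than the genes themselves in 14 of the 16 pairs. The ratio of Col6a1 to Col6a2 was 1.58 with an SD of 0.09 log2 units, no more than the 0.11 that counting error alone would give, while each gene had an SD of 1.28 or more. Col1a1 stood at 1.47 times Col1a2, with an SD of 0.13 log2 units and a range from 0.30 (tumour 09) to 0.75 (tumour 05) on the log2 scale. This ratio rests on the transcript lengths used and was 1.65 on the log2 scale instead of 0.56 when the union of all annotated exons set the length, whereas its SD does not depend on the length. Col4a1 over Col4a2, at 1.90, had an SD of 0.41 log2 units, well above the 0.04 of counting error, from 0.18 in tumour 11 to 1.68 in tumour 06. Col1a1 over Lrat was the least steady of the 16, with an SD of 1.28 log2 units and a 19.6-fold range from tumour 06 to tumour 05.

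**Figure D5:**
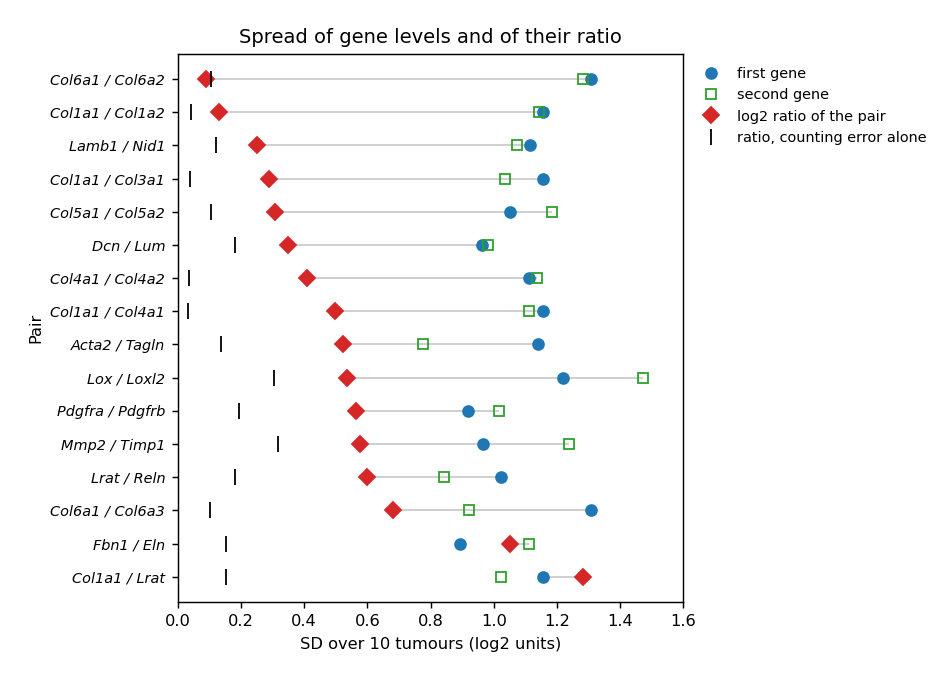
SD over 10 tumours, in log2 units, of the first gene (circles), the second gene (squares) and their log2 ratio (diamonds) for 16 pairs, with black ticks for the SD of the ratio that counting error alone would give. The ratio lies to the left of both genes for 14 pairs and to the right of at least 1 gene for Fbn1 over Eln and Col1a1 over Lrat.

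Upstream sequence was looked at for a gene that followed Col1a1 closely, Col1a2, and for Lrat, which did not. RefSeq promoter entries were found for 24 of the 39 genes (27 windows). The 250 bases before the annotated start are shown 5′ to 3′ on the strand of the gene, from RefSeq on GRCm38.p6, with capitals marking CCAAT and GGGCGG on either strand (ATTGG and CCGCCC in reverse), the binding letters of NF-Y and of Sp1-type factors.
Col1a2, chr6:4505368-4505617, forward strand: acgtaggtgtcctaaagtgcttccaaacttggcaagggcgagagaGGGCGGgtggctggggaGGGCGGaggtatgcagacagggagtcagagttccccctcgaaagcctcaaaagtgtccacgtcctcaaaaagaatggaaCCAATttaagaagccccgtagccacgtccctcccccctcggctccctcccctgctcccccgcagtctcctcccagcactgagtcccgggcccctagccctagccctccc
Lrat, chr3:82903975-82904224, reverse strand: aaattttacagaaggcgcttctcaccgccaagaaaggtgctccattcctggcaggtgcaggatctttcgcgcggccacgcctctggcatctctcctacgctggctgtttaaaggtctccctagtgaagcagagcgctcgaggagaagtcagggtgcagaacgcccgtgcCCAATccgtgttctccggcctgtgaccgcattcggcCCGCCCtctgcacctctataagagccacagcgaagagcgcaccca
The Col1a2 window held 1 CCAAT and 2 GGGCGG, and the Lrat window held 1 of each. CCAAT was present in 10 of the 27 windows (37%) and in 33.8% of 32851 RefSeq windows of this length, and GGGCGG in 15 of 27 (55.6%) and in 32.7%. TATAAA was present in 2 of 27 (7.41%) and in 12.4%. Such a match is a run of letters and not a shown binding site.

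Other genes of collagen biology were taken from lists. Over all 12461 genes, 2.34% rose with Col1a1 and 0.233% fell (edgeR). Of 16 collagen processing genes tested, 6 rose with Col1a1 and 0 fell (edgeR): Serpinh1, the collagen chaperone, by 0.89 ± 0.10, the prolyl hydroxylase subunit P4ha1 by 0.66 ± 0.14, Pcolce, Adamts2, which trims procollagen, and the cross-linking enzymes Loxl1 and Loxl3. The lysyl hydroxylases Plod1, Plod2 and Plod3 were not among them, with slopes of -0.06 ± 0.12, 1.03 ± 0.35 and 0.08 ± 0.07. Of 25 other matrix genes, 9 rose, including Thbs1 by 1.21 ± 0.15, Tnc, tenascin C, by 1.09 ± 0.19 and Nid2 by 0.63 ± 0.08. Of 10 other proteases and inhibitors, only Timp2 and Timp3 rose, by 0.48 ± 0.11 and 0.87 ± 0.13. None of the 6 Mmp genes tested did.

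Of 19 genes of TGF-β and PDGF signalling, 4 rose with Col1a1 (edgeR), against 2.34% of 12461 genes. They were the ligands Tgfb1 (0.68 ± 0.13), Tgfb3 (0.78 ± 0.11) and Pdgfb (0.79 ± 0.16), and Ltbp4, which binds latent TGF-β (0.67 ± 0.13). The receptors Tgfbr1 and Tgfbr2 and the transducers Smad2, Smad3 and Smad4 did not pass and had slopes of 0.04 to 0.18. Ccn2, a target of this pathway, had a slope of 0.78 ± 0.24 (edgeR, adjusted p = 0.151).

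Cell type lists were then read beside the 2.34% of all 12461 genes that rose with Col1a1 (edgeR). The lists hold few tested genes, and differences between them were not tested. Of smooth muscle and pericyte genes 5 of 7 rose, among them Notch3 (0.93 ± 0.14) and Myh11 (0.73 ± 0.16), and of endothelial genes 9 of 15. Only 3 of 13 portal fibroblast and mesothelial genes passed the filter. Of these, Cd34 and Fbln2 rose and Entpd2 did not (0.26 ± 0.24). Cd34 also rose with the endothelial score, by 1.08 ± 0.16 (edgeR, adjusted p = 0.00251). Of further stellate cell genes 1 of 10 rose, Cygb, the stellate cell globin, at 0.66 ± 0.15. No gene rose or fell among 8 macrophage, 1 lymphocyte, 2 cholangiocyte, 10 hepatocyte, 12 proliferation and 2 small nuclear or RNase RNA genes tested. With Lrat, 0 of 144 genes tested over the 15 lists passed in edgeR (50 at an unadjusted p under 0.05), and the median slope of the 10 further stellate genes was 0.57.

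By likeness over the 10 tumours among 9733 protein-coding genes outside the 39 with a mean of at least 5 CPM, Itga6, an integrin chain that binds laminin, came closest to Col1a1 (r = 0.982, rho = 0.964), followed by Aebp1, Pxdn, Cavin1, Serpinh1, Nid2, Nes and Ier3ip1 (r = 0.945 or more). Of these 8 all but Ier3ip1 passed the fit on Col1a1. The lowest r, down to -0.924, belonged to Mavs, Yif1a, Gjb1, the connexin of hepatocyte gap junctions, and Helz2. These are descriptions over tumours that may share mice.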

How the data were processed

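RNA from mouse liver tumours was sequenced after polyA selection (Trizol extraction, TruSeq stranded mRNA libraries). As deposited, the file holds raw read counts, not normalised, in 1 table with 39179 gene identifiers, 5 summary lines and 19 columns. The submitters' processing notes name TopHat2, HTSeq and GRCm38, whereas the methods of the study name other programs and a later build. Whether counting used the strand is not given in the sources used here. Columns were tied to samples by the number shared by column name and title. This was unambiguous for 10 tumours, and 9 columns were not used here.

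Library sizes were corrected by TMM in edgeR 4.0.16 under R 4.3.3. Genes were filtered with filterByExpr and fitted with edgeR's quasi-likelihood F test, with Benjamini-Hochberg adjustment over all genes tested and a threshold of 0.05. A prior count of 2 was used for log2 CPM. The covariate of a slope was measured in the same libraries and centred. The standard error of a slope was derived from the test, as its absolute value divided by the square root of F. DESeq2 1.42.0 served as an alternative. Symbols and transcript lengths came from GENCODE M39 by identifier, and coordinates from RefSeq on GRCm38.p6. The fits were tested on simulated data. Pairs were tested in Python 3.11.15 with scipy 1.17.1, and plots were drawn with matplotlib 3.10.9. Other choices tried were DESeq2 size factors, a prior count of 0.5, no filter, added covariates and each tumour left out.

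The 39 genes, the 16 pairs and 15 further gene lists were chosen with earlier results of these data known. All 39 genes were described by role, and other genes were named only from these lists or as the 8 most and 4 least like Col1a1, apart from 3 genes marked in the text. The labels give the tumours as separate samples but not their mice, so p-values measure the spread between these samples. At total gene counts of 11687034 to 36964427 per tumour, the floor of 3 counts covers counting error only.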

Additional observations from a re-analysis of the deposited data

Results flagged for a closer look

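For 55 measures, namely the level of each gene and the log2 ratio of each pair, the gap between an extreme tumour and the next was set against the range of the 10 tumours (Dixon's test). It exceeded the 95% critical value of 0.466 for 1 measure, where chance flags about 1 in 20 groups. This was the log2 ratio of Dcn over Lum in tumour 06, whose gap was 0.492 of the range. Per kilobase it was 2.08 on the log2 scale in tumour 06 and as low as 0.88 in tumour 09. Tumour 06 held 62.6 CPM of Dcn, the second highest value, but 5.89 CPM of Lum, and the SD of this ratio that counting error alone would give was 0.18 log2 units.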

How the results depend on the processing

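No paired analysis was possible because the control columns were not used, which left 1 group. Counts below are given as all genes and then matrix and stellate genes where both moved by more than 1.5 times. Of the summary values under an alternative, 229 stayed within that limit and 98 did not. Scaling by DESeq2 size factors and a prior count of 0.5 moved no summary value. Without the filter, the genes with an SD above 1 numbered 2066, the genes called by tag family 23, on Lrat 1, on Acta2 10 and on the endothelial score 636. DESeq2 called 504 and 1 by tag family, 639 genes on Col1a1, 1179 on Col4a1, 126 and 6 on Lrat, 179 and 9 on Acta2, 759 on the endothelial score, 76 and 3 on the macrophage score and 45 on the proliferation score.

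With tag family added, edgeR called 292 genes on Col4a1, and 0 and 0 on Acta2. The remaining alternatives in this paragraph, and the use of the 7 tumours low in Rpph1 alone, were chosen after seeing the data. With Rpph1 added, edgeR called 0 genes by tag family, 196 on Col1a1, 204 on Col4a1, 7 and 2 on Lrat, and 91 and 9 on Acta2. With the endothelial score added it called 0 and 0 on Col1a1, and with the blood score added 11 matrix and stellate genes on Col1a1 and 753 and 15 on the endothelial score. With Col1a1 added it called 1 and 0 on the endothelial score. With the whole tag added it called 2 and 1 on Col1a1, 0 and 0 on Col4a1, 2 genes on Lrat, 0 and 0 on Acta2, and 109 and 8 on the endothelial score. Without tumours 07 and 09 it called 36 and 6 on Col1a1, 1245 genes on Col4a1, and 0 and 0 on Lrat and on Acta2. The whole tag leaves few degrees of freedom, and otherwise the cause was not tested.

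With each tumour left out in turn, the genes with an SD above 1 numbered 572 to 711, and the matrix and stellate genes among them 13 (without tumour 09) to 24. By tag family 0 to 175 genes (175 without tumour 09) and 0 to 2 were called. On Col1a1 135 to 469 and 17 to 24 were called, on Col4a1 252 to 698 and 16 to 25, on Lrat 0 to 14 and 0 to 3, on Acta2 0 to 27 and 0 to 9, on the endothelial score 281 to 469 and 19 to 26, and on the macrophage score 0 to 1 genes. Between 14 and 15 pairs were correlated, the additional pair being Fbn1 with Eln without tumour 10 (r = 0.675), and 13 to 15 ratios varied less than both of their genes. With the union of exons as length, a choice also made after seeing the data, 7 of the 16 mean log2 ratios moved by more than their SD. Depth limits Mgp, Loxl2, Timp1 and Thy1, with as few as 9 counts in a tumour.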
